A study of Homo sapiens with 6 samples.

Results

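The genes described here are 37 genes of glycolysis and of the cellular response to low oxygen, listed by name. Of these, 33 had a named probe set, out of 17687 genes tested. PFKFB4, SLC16A1, SLC16A3 and CA9 were not matched to a named probe set and are not analysed here. The samples were RNA of NCI-H2023, a lung adenocarcinoma cell line, each hybridised to its own expression array. All were reverse transfected with a lipid reagent and a small RNA at 0.5 nM, and their medium was renewed at 24 h. The 3 groups, with 2 samples each lettered A and B, received a control mimic (which the treatment protocol names as a negative control siRNA), a miR-223-3p mimic or a miR-29a-3p mimic. No group was labelled as grown in low oxygen, no untransfected cells were included, and the only line was NCI-H2023, so the values describe 1 cell line. Nothing in the labels says that A and B came from separate cultures, so the p-values reflect no more than the scatter of these samples, and that scatter may be technical.

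Glycolysis turns glucose into pyruvate, and tumour cells of the lung, like many others, often reduce much of that pyruvate to lactate and export it even when oxygen is present. When oxygen falls, the alpha subunits of the hypoxia-inducible factors escape hydroxylation by the EGLN enzymes and degradation through VHL, and they switch on genes for glycolytic enzymes, pH control, blood vessel growth, mitophagy and collagen hydroxylation. That control acts mainly on the factor's protein, so the messenger RNA of HIF1A does not by itself report the factor's activity.

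The mature sequences of the microRNAs that the mimics stand for are shown because each mimic is read by its seed, bases 2 to 8, which is in capitals. They come from RefSeq on GRCh38.p14, where miR-223-3p lies at chrX:66018937-66018958 on the plus strand and miR-29a-3p at chr7:130876748-130876769 on the minus strand.
miR-223-3p: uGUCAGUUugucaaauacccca
miR-29a-3p: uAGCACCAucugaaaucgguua
The seeds differ. No search for target sites was made, because no transcript sequences were at hand.

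The 250 bases before the transcription start are shown for the genes on which the results below turn, LDHA, HIF1A and BPGM, because many members are known targets of the hypoxia-inducible factors, whose response element has the core ACGTG or GCGTG. Capitals mark these letters on either strand, and the palindrome CACGTG, which other factors also bind, counts on both strands. The windows come from RefSeq on GRCh38.p14, all on the plus strand, at chr11:18394313-18394562 for LDHA, chr14:61695263-61695512 for HIF1A and chr7:134646603-134646852 for BPGM. Where a gene has several starts, the window with the most matches is printed.
LDHA: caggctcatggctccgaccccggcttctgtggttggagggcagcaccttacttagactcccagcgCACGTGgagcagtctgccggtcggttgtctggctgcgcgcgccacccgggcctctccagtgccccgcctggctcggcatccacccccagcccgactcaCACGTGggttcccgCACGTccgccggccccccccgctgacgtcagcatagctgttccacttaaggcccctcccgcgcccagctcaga
HIF1A: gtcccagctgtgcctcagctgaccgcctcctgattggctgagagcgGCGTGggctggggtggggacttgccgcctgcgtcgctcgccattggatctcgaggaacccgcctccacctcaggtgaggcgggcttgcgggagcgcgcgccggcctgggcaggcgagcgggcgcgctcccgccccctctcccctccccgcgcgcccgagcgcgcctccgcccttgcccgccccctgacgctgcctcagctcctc
BPGM: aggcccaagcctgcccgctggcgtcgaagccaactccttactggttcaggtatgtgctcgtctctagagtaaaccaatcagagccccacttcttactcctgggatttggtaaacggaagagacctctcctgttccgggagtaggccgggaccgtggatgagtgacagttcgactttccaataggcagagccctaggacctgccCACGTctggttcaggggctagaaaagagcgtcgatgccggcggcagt
LDHA held 5 matches, including 2 copies of the palindrome, while HIF1A and BPGM held 1 each. Of the 33 measured members 29 matched the promoter table, with 52 windows, and 31 of those windows (59.6%) held a match, against 43.2% of the 35116 windows of all genes. Windows of the same gene can overlap, so they are not independent. Counted by gene, 25 of 29 members (86.2%) held a match in any window, against 47.4% of 27305 genes. A gene with more windows has more room for a match, and members more often had several. A single start was listed for 19 of the 29 members and for 22114 of the 27305 genes, which include genes not measured here. Neither difference in matches was tested. Matches are letters in a window, not sites shown to be bound.

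Signals are log2 values made by the submitters with RMA, so a difference of 1 is a doubling. The array medians lay between 6.21 and 6.23. The number of arrays limits the precision, and the median residual SD was 0.151 for the members and 0.204 for all genes. The line's epithelial label held, with all 5 epithelial markers above the median probe set in signal. All 4 endothelial and all 4 leukocyte markers measured lay below it, as did 3 of 4 fibroblast markers, COL1A2 being the exception at 7.5 to 7.92. The log2 of the summed signal of the epithelial list was 17.99 to 18.06 in control, 17.93 to 18.17 with miR-223-3p and 18.04 to 18.07 with miR-29a-3p, and some single markers differed by more than this sum. The adhesion protein EPCAM measured 10.49 and 10.16 in control and 11.39 and 11.54 with miR-223-3p, and keratin 19 (KRT19) 11.86 and 12.25 against 12.9 and 12.85. With miR-29a-3p KRT19 was also above control, at 12.57 and 12.57, and EPCAM measured 10.36 and 10.59. E-cadherin (CDH1) went the other way with that mimic, from 10.79 and 10.82 in control to 10.26 and 9.67. With miR-223-3p CDH1 measured 11.16 and 10.51, on either side of the controls. Their part in the members' differences was not tested. The log2 of the summed signal of the fibroblast list was 7.95 to 8.11 in control, 8.1 to 8.26 with miR-223-3p and 7.94 to 8.2 with miR-29a-3p, the leukocyte list had 6.42 to 6.7, 6.4 to 6.48 and 6.48 to 6.51, and the endothelial list 6.64 to 6.78, 6.54 to 6.59 and 6.42 to 6.49. Fewer cells with a given transcript and less of it per cell cannot be told apart in such samples.

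**Figure D1:**
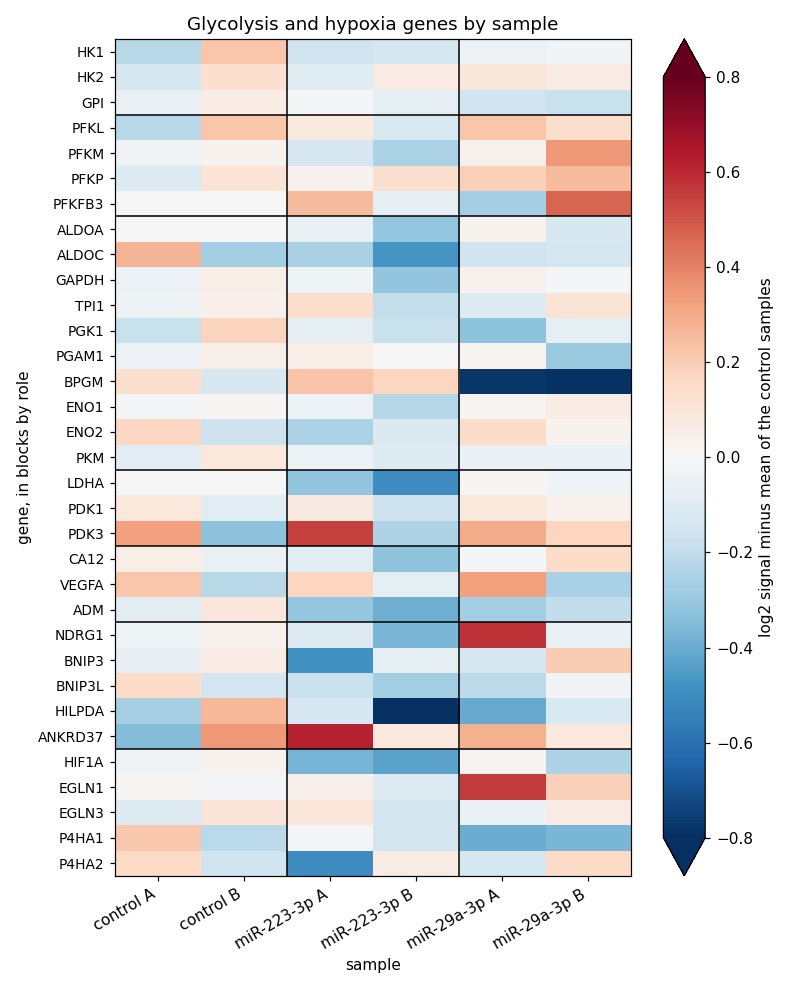
Log2 signal of each of the 33 members (rows, in blocks by role) in each of the 6 samples (columns), as the difference from the mean of the control samples, where red is higher, blue is lower and the scale ends at 0.8 in either direction. BPGM is dark blue in both miR-29a-3p samples, and LDHA and HIF1A are blue in both miR-223-3p samples.

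With the miR-223-3p mimic most members lay slightly below control. LDHA, the lactate dehydrogenase subunit that makes lactate from pyruvate, was 1.32-fold lower, and HIF1A, the oxygen-regulated subunit of hypoxia-inducible factor 1, was also 1.32-fold lower. Neither passed limma's moderated test with a constant prior variance, in which no member was called and 0.0% of all genes were. LDHA was called when the prior variance followed the signal level, an alternative named the intensity trend here. That fit called 1 of 33 members against 0.684% of all genes.

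LDHA (gene ID 3939, GRCh38 chromosome 11, 18394563 to 18408425) measured 16.4 and 16.41 in control samples A and B (mean 16.405 ± 0.00707, SD, n = 2), 16.09 and 15.91 with miR-223-3p (16.0 ± 0.127), and 16.42 and 16.37 with miR-29a-3p (16.395 ± 0.0354). Both miR-223-3p samples lay below the other 4, and the miR-29a-3p samples lay beside the controls. The log2 difference of miR-223-3p from control was -0.405 with a standard error of 0.174 in limma, with an unadjusted p of 0.0468 and an adjusted p of 0.648. In limma with the intensity trend the standard error was 0.0916 and the adjusted p 0.0465, just inside the threshold of 0.05. That call was lost without any 1 sample. In limma with the trend the adjusted p of LDHA was 0.323 without control A, 0.286 without control B, 0.051 without miR-223-3p A, 0.457 without miR-223-3p B, 0.0932 without miR-29a-3p A and 0.0933 without miR-29a-3p B. It was 0.0671 after a second quantile normalization, where the difference was -0.33, and 0.0604 after centring arrays on their medians. The call was kept in limma with the trend in 2 other settings. Its adjusted p was 0.0314 without genes of a mean signal under 5, and 0.0126 with the letters A and B as blocks.

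HIF1A (gene ID 3091, chromosome 14, 61695513 to 61748258) measured 15.61 and 15.67 in control (mean 15.64 ± 0.0424, SD, n = 2), 15.27 and 15.21 with miR-223-3p (15.24 ± 0.0424), and 15.66 and 15.39 with miR-29a-3p (15.525 ± 0.191). The miR-223-3p samples were again the lowest of the 6, and with miR-29a-3p sample A lay among the controls while sample B lay below them. The difference of miR-223-3p from control was -0.4 with a standard error of 0.182, an adjusted p of 0.675 in limma and 0.118 in limma with the intensity trend. EPAS1, the alpha subunit of hypoxia-inducible factor 2 and not a member, was looked at after its values were seen. It measured 14.15 and 14.25 in control, 13.77 and 13.81 with miR-223-3p, and 14.02 and 14.27 with miR-29a-3p. Its difference of -0.41 with miR-223-3p was close to that of HIF1A and did not pass either, with an adjusted p of 0.664 in limma and 0.162 in limma with the intensity trend.

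**Figure D2:**
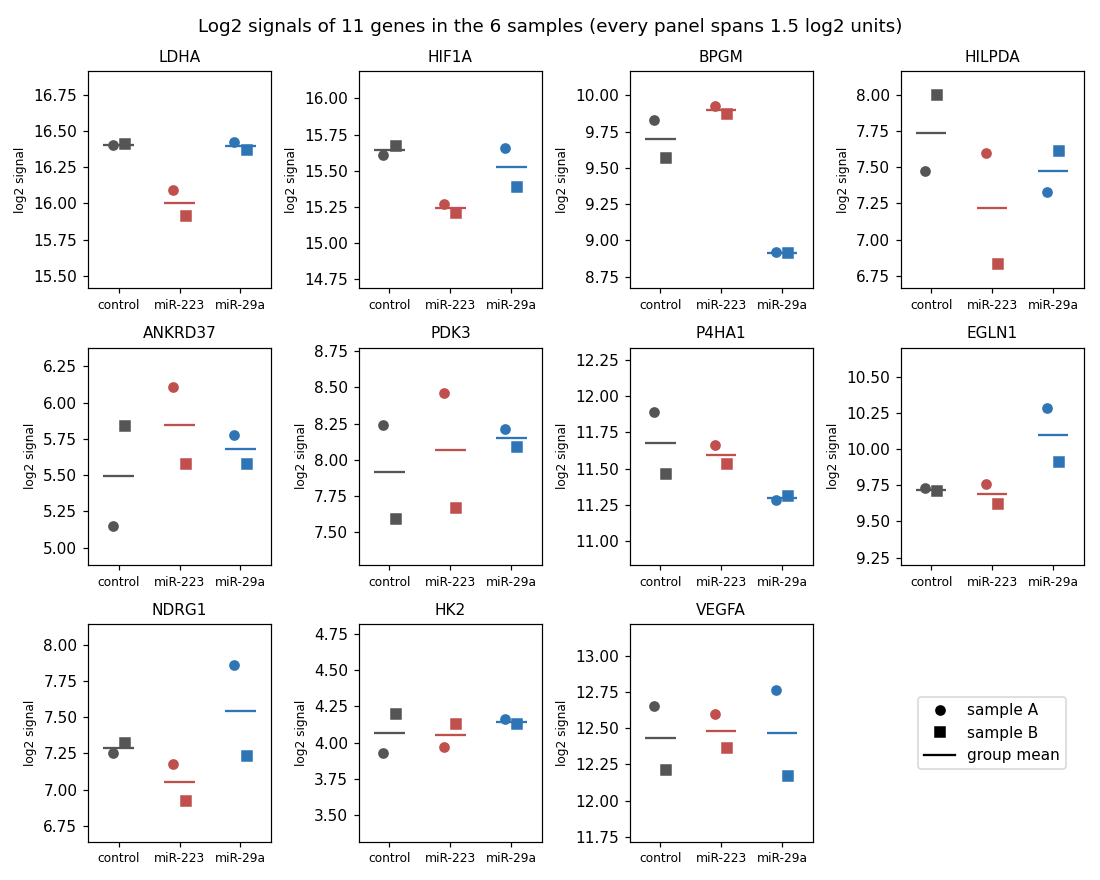
Log2 signal (vertical axis, each panel spanning 1.5 log2 units) of 11 members in the 3 groups, with circles for sample A, squares for sample B and lines for group means. LDHA and HIF1A separate with miR-223-3p and BPGM separates with miR-29a-3p, while for PDK3, VEGFA and ANKRD37 the control samples differ by more than the group means do.

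Counted over the list, 26 of 33 members lay below control with miR-223-3p and 7 above, and the median log2 difference was -0.125, where 49.3% of all genes lay below control and their median was 0.0. The samples did not overlap with control for 10 members lower and 1 higher, while 18.2% of all genes were lower without overlap and 18.7% higher. At an unadjusted p under 0.05 limma had 1 member, LDHA, where 7.59% of all genes had one. The 10 lower members without overlap were PFKM, ALDOA, ENO1, LDHA, CA12, ADM, NDRG1, BNIP3, BNIP3L and HIF1A, and the higher one was BPGM. None but LDHA was called in either fit.

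The size of this shift depended on single samples. The median of the members relative to the control mean was -0.05 in miR-223-3p sample A and -0.145 in sample B, and -0.03 and 0.03 in control A and B. Without miR-223-3p B the median difference was -0.05 with 21 of 33 members below control, and without control B 20 of 33 lay below. Many members are very bright, and bright genes as a whole also lay low in sample B. Over the 472 genes with a mean signal of 14 or more, the median relative to control was 0.01 in miR-223-3p A and -0.075 in B, and for the 11 members in that range it was -0.045 and -0.23. Members of some dimmer ranges lay low too. At a mean signal of 12 to 14 the median difference was -0.1775 for 4 members and -0.01 for all genes. At 10 to 12 it was -0.1725 for 4 members and 0.01 for all genes, and at 6 to 8 -0.14 for 4 members and -0.005. At 8 to 10 it was -0.02 for 7 members and 0.01, and at 4 to 6 -0.015 for 3 members and -0.01. After a second quantile normalization the members' median was -0.0629 with 25 of 33 below. The part of signal level in the members' shift was not tested.

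**Figure D3:**
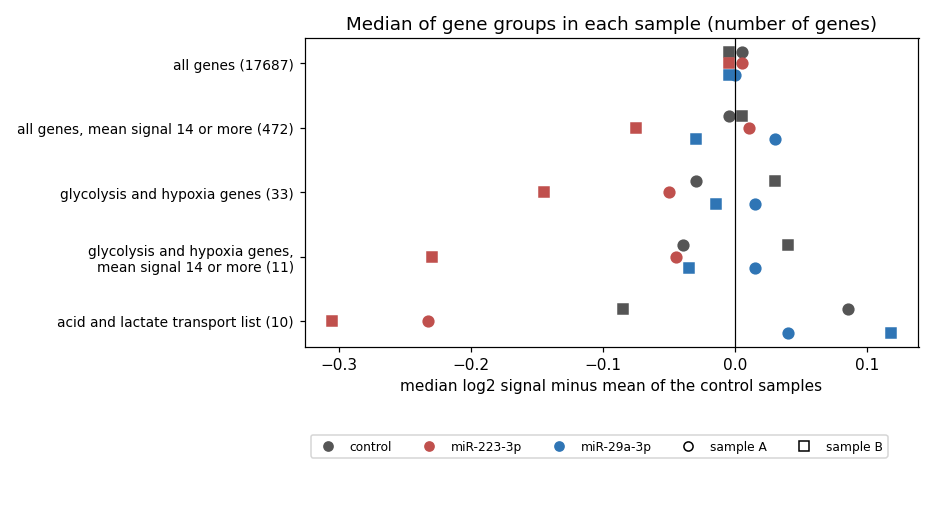
Median log2 signal relative to the mean of the control samples (horizontal axis) for 5 groups of genes (rows, number of genes in brackets), with 1 point per sample, circles for A and squares for B. miR-223-3p sample B is leftmost in the rows of bright genes and of glycolysis and hypoxia genes, at -0.23 for the bright members against -0.075 for all bright genes.

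Among the enzymes that take glucose to pyruvate, differences with miR-223-3p were small. Hexokinase 1 (HK1) and glucose-6-phosphate isomerase (GPI), which start the pathway, differed by -0.15 and -0.045. HK2, the inducible hexokinase, was dim in every sample, at 3.93 and 4.2 in control, 3.97 and 4.13 with miR-223-3p, and 4.16 and 4.13 with miR-29a-3p. These lie near 4.0, the lower quartile of all probe sets, where RMA compresses differences, and the groups overlap. Of the phosphofructokinase genes, which code for the committed step, PFKL, PFKM and PFKP differed by -0.02, -0.195 and 0.08. PFKFB3, whose product makes the activator of that step, differed by 0.09. Of the 10 genes of the lower steps 8 lay below control, from ALDOC, a brain-type aldolase, at -0.365 to TPI1, triosephosphate isomerase, at -0.025. The bright housekeeping enzymes ALDOA, GAPDH and ENO1 differed by -0.185, -0.175 and -0.14, with their lowest value in miR-223-3p B each time, at 16.65, 17.52 and 17.51. Several of these enzymes, LDHA and GAPDH among them, have processed pseudogenes, and signal from such copies was not tested.

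Pyruvate dehydrogenase kinases hold pyruvate out of the mitochondrial cycle. PDK1, the hypoxia-induced form, differed by -0.045 with miR-223-3p and 0.06 with miR-29a-3p. PDK3 measured 8.24 and 7.59 in control, 8.46 and 7.67 with miR-223-3p, and 8.21 and 8.09 with miR-29a-3p. Sample A exceeded sample B in every group, and the groups overlap. Its differences of 0.15 and 0.235 had a standard error of 0.301 in limma.

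Of the secreted and surface products of the hypoxia response none passed the test with either mimic. VEGFA, the main growth factor for blood vessels, measured 12.65 and 12.21 in control, 12.6 and 12.36 with miR-223-3p, and 12.76 and 12.17 with miR-29a-3p. Its samples A and B were farther apart than any group means, and the differences were 0.05 and 0.035. ADM, the vasodilator peptide adrenomedullin, lay lower with both mimics without overlap, from a mean of 10.6 in control to 10.25 with miR-223-3p and 10.365 with miR-29a-3p, but both comparisons use the same control samples. Its adjusted p in limma was 0.703 and 0.752. CA12, a carbonic anhydrase at the cell surface that aids acid export, differed by -0.205 and 0.065.

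Among the genes of mitophagy and stress, BNIP3 and BNIP3L, mitochondrial receptors for autophagy, differed by -0.28 and -0.23 with miR-223-3p and by 0.035 and -0.115 with miR-29a-3p. HILPDA, a lipid droplet protein that inhibits lipolysis, had the lowest difference of all members with miR-223-3p, at -0.52, but with a wide spread. It measured 7.47 and 8.0 in control, 7.6 and 6.83 with miR-223-3p, and 7.33 and 7.61 with miR-29a-3p. The groups overlap, and the adjusted p for miR-223-3p was 0.74 in limma. ANKRD37, an ankyrin repeat protein induced by hypoxia-inducible factor 1, had the highest difference, at 0.35, and measured 5.15 and 5.84 in control, 6.11 and 5.58 with miR-223-3p, and 5.78 and 5.58 with miR-29a-3p. The control samples differed by more than any group means, the groups overlap, and the adjusted p was 0.836 in limma.

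With the miR-29a-3p mimic the members were not shifted as a list, and BPGM stood out. BPGM, bisphosphoglycerate mutase, which diverts a glycolytic intermediate to 2,3-bisphosphoglycerate, was 1.72-fold lower than control. The lowest difference after it was that of P4HA1, a collagen prolyl hydroxylase subunit, at 1.3-fold lower, and the highest was that of EGLN1, the main oxygen sensor of the pathway, at 1.3-fold higher. No member was called in limma with the constant prior, which called 0.0113% of all genes. With the intensity trend 1 of 33 members was called, BPGM, where 1.03% of all genes were.

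BPGM (gene ID 669, chromosome 7, 134646853 to 134679816) measured 9.83 and 9.57 in control (mean 9.7 ± 0.184, SD, n = 2), 9.93 and 9.87 with miR-223-3p (9.9 ± 0.0424), and 8.92 and 8.91 with miR-29a-3p (8.915 ± 0.00707). The miR-29a-3p samples lay below every other sample, and the miR-223-3p samples lay slightly above both controls. The log2 difference of miR-29a-3p from control was -0.785 with a standard error of 0.18, an unadjusted p of 0.00208 and an adjusted p of 0.249 in limma. With the intensity trend its adjusted p in limma was 0.041, and that was 0.367 without control A, 0.0906 without control B, 0.176 without miR-29a-3p A and 0.178 without miR-29a-3p B. The difference itself ran from -0.915 to -0.655 over these 4 fits. With the trend the call was kept after a second quantile normalization (adjusted p = 0.0448 in limma) and after median centring (adjusted p = 0.0453 in limma).

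EGLN1 measured 9.73 and 9.71 in control, 9.76 and 9.62 with miR-223-3p, and 10.28 and 9.91 with miR-29a-3p. Both miR-29a-3p samples lay above the other 4, with sample A the highest. The difference of 0.375 had a standard error of 0.194 and an adjusted p of 0.623 in limma. EGLN3, the hydroxylase most strongly induced by hypoxia in many cells, differed by -0.025 with the miR-223-3p mimic and by 0.005 with the other.

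P4HA1 measured 11.89 and 11.46 in control, 11.66 and 11.53 with miR-223-3p, and 11.28 and 11.31 with miR-29a-3p. The miR-29a-3p samples were the lowest of the 6, and the controls were farther from each other than the group means were. Its difference of -0.38 had an adjusted p of 0.626 in limma and 0.392 with the intensity trend. P4HA2, the related subunit, differed by -0.22 with the miR-223-3p mimic and by 0.005 with the other.

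NDRG1, a stress-induced protein of the cytoplasm, had the next highest difference with miR-29a-3p, at 0.26, and this came from sample A. It measured 7.25 and 7.32 in control, 7.18 and 6.92 with miR-223-3p, and 7.86 and 7.23 with miR-29a-3p. Without miR-29a-3p A its difference was -0.055. The adjusted p was 0.815 in limma.

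Over the list, 14 of 33 members lay below control with miR-29a-3p, 18 above and TPI1 at 0.0, with a median difference of 0.005, while 49.5% of all genes lay below. Samples did not overlap with control for 4 members lower, which were GPI, BPGM, ADM and P4HA1, and 4 higher, which were PFKM, PFKP, ENO1 and EGLN1. Of all genes 18.8% were lower and 19.0% higher without overlap. At an unadjusted p under 0.05 limma had 1 member, BPGM, where 8.86% of all genes had one. All 4 genes measured for phosphofructokinase and its regulators lay above control on average, from PFKFB3 at 0.095 to PFKP at 0.22, none past the test. For PFKFB3 this mean hid values of 7.7 and 8.44 in the miR-29a-3p samples, on either side of the controls at 7.97 and 7.98. PGK1 and PKM, which make the ATP of the pathway, differed by -0.2 and -0.055, and PGAM1, the phosphoglycerate mutase of the main route, by -0.14. LDHA differed by -0.01 with miR-29a-3p, a sign that turned after a second quantile normalization (0.03) and after median centring (0.005).

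**Figure D4:**
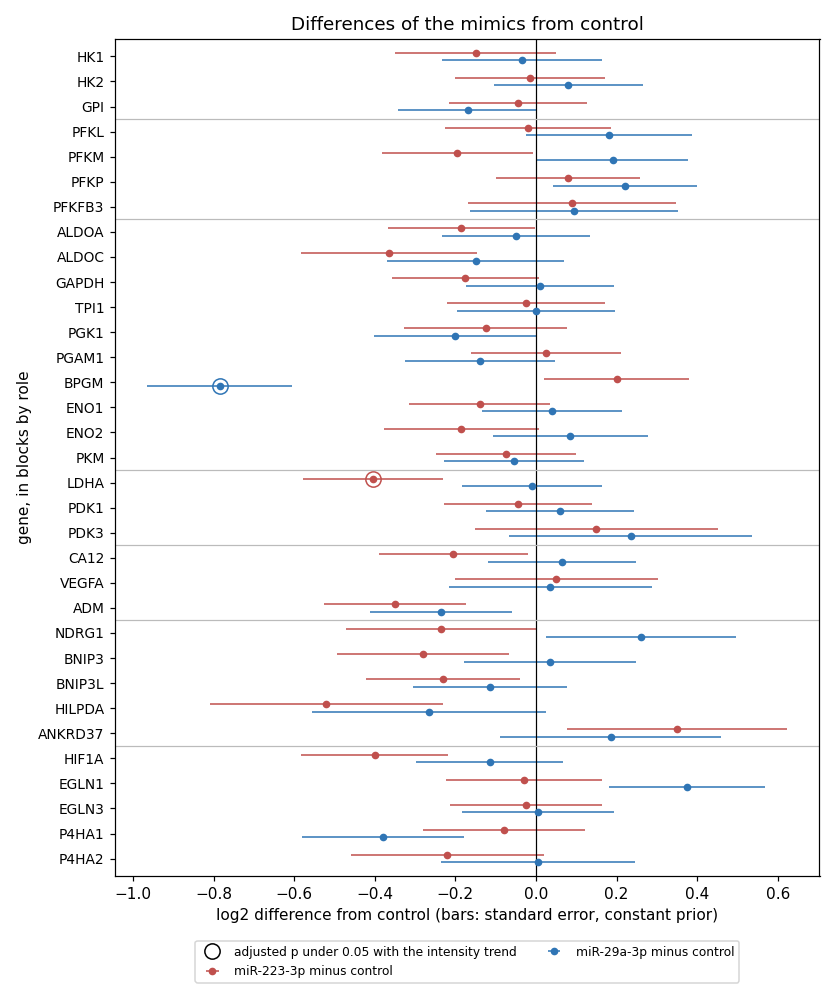
Log2 difference from control (horizontal axis) of the 33 members for miR-223-3p (red) and miR-29a-3p (blue), with bars for the standard error in limma with the constant prior. Rings mark LDHA with miR-223-3p and BPGM with miR-29a-3p, called with the intensity trend, and both sets of differences share the control samples.

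In the direct comparison of the mimics BPGM was 1.98-fold lower in the miR-29a-3p samples. This is a log2 difference of -0.985 (standard error 0.18). The difference itself uses no control sample, but its standard error and p-values come from the fit of all 6 samples, controls included. Under the constant prior limma gave it an adjusted p of 0.0889, which became 0.0396 when genes with a mean signal under 5 were left out, and 0.0047 with the intensity trend. It passed with the trend whichever sample was left out. LDHA was 1.31-fold higher with miR-29a-3p, at 0.395, with an adjusted p of 0.492 in limma and 0.0255 with the trend. Without miR-223-3p B, miR-29a-3p A or miR-29a-3p B that last value was 0.299, 0.207 and 0.128.

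With the constant prior limma called no member between the mimics and 0.221% of all genes, and with the intensity trend 2 of 33 members and 1.94% of all genes. At an unadjusted p under 0.05 it had 1 member, BPGM, and 10.3% of all genes. Of the members 26 lay higher with miR-29a-3p and 7 lower, with a median of 0.115 against -0.005 for all genes. Samples did not overlap for 14 members higher and 3 lower, where 19.2% of all genes were higher and 19.5% lower. Without miR-223-3p B 19 of 33 members lay higher and the median was 0.065. The higher members without overlap were HK1, PFKL, PFKM, PFKP, ALDOC, GAPDH, ENO1, ENO2, LDHA, CA12, ADM, NDRG1, HIF1A and EGLN1, and the lower ones GPI, BPGM and P4HA1. ENO2, the neuronal enolase, was dim, with a mean of 4.78 with miR-223-3p and 5.05 with miR-29a-3p. NDRG1 at 0.495, EGLN1 at 0.405 and PFKM at 0.385 had the highest differences, none past the test in either fit, with adjusted p in limma of 0.536, 0.537 and 0.543.

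The rest of the pathway was read from 6 lists that hold no member. In limma with the constant prior no gene of these lists was called in either mimic against control. With the intensity trend some were, and they are given by list below. That fit called 0.684% of all genes for miR-223-3p and 1.03% for miR-29a-3p. Between the mimics the constant prior called 3 list genes, where 0.221% of all genes were called. These were the glucose transporters SLC2A3 and SLC2A14, lower with miR-29a-3p by -2.42 and -1.58 (adjusted p = 0.0303 and 0.0321 in limma), and the bicarbonate cotransporter SLC4A4, higher by 1.565 (adjusted p = 0.0326 in limma). These 3 calls depended on the fit. With the letters A and B as blocks no gene was called between the mimics, and fitting only the mimics left fewer than 3 genes called. The list of acid and lactate transport stood lowest with miR-223-3p, with 9 of 10 genes below control, a median of -0.2425 and 3 genes called lower with the trend, where 49.3% of all genes lay below control and 0.684% were called. The lists were drawn up with earlier results of these data known, so this rank and the lists' counts of calls are descriptions. The 3 genes were the sodium bicarbonate cotransporters SLC4A4 at -1.325 (adjusted p = 0.179 in limma with the constant prior and 0.00214 with the trend) and SLC4A7 at -0.855, and carbonic anhydrase 2 (CA2), which interconverts carbon dioxide and bicarbonate, at -0.91. SLC4A7 measured 9.44 and 9.2 in control, 8.44 and 8.49 with miR-223-3p, and 9.38 and 9.64 with miR-29a-3p. CA2 measured 11.8 and 11.95, 10.95 and 10.98, and 11.77 and 12.27 in the same order. For both genes the miR-223-3p samples lay below all others, and the adjusted p in limma was 0.344 and 0.365 with the constant prior and 0.0483 and 0.0081 with the trend. All genes were refitted without single samples, but the calls of single genes outside the member list were not followed in those refits. With miR-29a-3p this list had 4 of 10 below control and a median of 0.1675, with SLC16A4, a monocarboxylate transporter family protein, called higher with the trend at 0.86 (adjusted p = 0.00103 in limma) and SLC16A14 called lower at -1.49 (adjusted p = 7.73e-05 in limma). Neither passed with the constant prior, where limma gave adjusted p of 0.211 and 0.0918. BSG, the chaperone that brings lactate transporters to the membrane, differed by -0.225 and -0.205.

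Other genes induced in hypoxia, 43 measured of 47, had 23 below control with miR-223-3p and a median of -0.1. AK4, a mitochondrial adenylate kinase, had the smallest p among them, at -0.755, and did not pass (adjusted p = 0.442 in limma and 0.164 with the trend). With the trend 1 of the 43 was called, where 0.684% of all genes were. It was DDIT4, an inhibitor of mTORC1, lower at -0.72 (adjusted p = 0.0317 in limma with the trend and 0.472 with the constant prior). With miR-29a-3p 18 of these 43 lay below control. The trend called 1 of them lower and 2 higher, where 1.03% of all genes were called in either direction. The lower one was the growth factor binding protein IGFBP3 at -1.215 (adjusted p = 9.51e-05 in limma with the trend and 0.125 with the constant prior). The higher ones were the collagen lysyl hydroxylase PLOD2 at 0.545 and the phosphatase DUSP1 at 0.75 (adjusted p = 0.0213 and 0.0335 in limma with the trend). HMOX1, the stress-induced haem oxygenase, differed by 1.01 and did not pass (adjusted p = 0.295 in limma and 0.0724 with the trend). The HIF subunits and regulators had 0 of 17 genes called in either mimic in both fits, with 2 at an unadjusted p under 0.05 in limma for miR-223-3p and 3 for miR-29a-3p, where 7.59% and 8.86% of all genes had one. RBX1, a subunit of the VHL ubiquitin ligase, differed by 0.645 with miR-223-3p (adjusted p = 0.454 in limma and 0.0597 with the trend), and the ubiquitin ligase SIAH1, which acts on EGLN proteins, by -0.57. CITED2, which competes with the alpha subunits for their coactivator, differed by -0.49 with miR-29a-3p. ARNT, the partner of the alpha subunits, differed by 0.075 with miR-223-3p and -0.555 with miR-29a-3p. Mitochondrial pyruvate use and the TCA cycle had 0 of 28 called in either mimic in both fits, and 1 and 2 at an unadjusted p under 0.05 in limma, with medians of 0.0225 and -0.01. DLST, a subunit of the oxoglutarate dehydrogenase complex, differed by -0.545 with miR-223-3p, and SDHD, a subunit of succinate dehydrogenase, by 0.38. MPC2, of the mitochondrial pyruvate carrier, and PDHX, of the pyruvate dehydrogenase complex, differed by -0.47 and -0.595 with miR-29a-3p. The pentose phosphate pathway likewise had 0 of 8 called and 0 at an unadjusted p under 0.05 in limma, and TKT, its transketolase, differed by -0.395 with miR-29a-3p. The lactonase PGLS differed by -0.61, but its samples overlap, with 8.87 and 9.55 in control and 7.94 and 9.26 with miR-29a-3p. RPE and RPIA, which interconvert pentose phosphates, differed by 0.315 and 0.22 with miR-223-3p. Of the other glycolysis and glucose entry genes 20 were measured, and FBP1, a gluconeogenic phosphatase, and SLC2A3 lay above control with miR-223-3p by 0.46 and 0.765, neither past the test. FBP1 was dim, at 3.17 and 3.09 in control and 3.62 and 3.56 with miR-223-3p, under the lower quartile of all probe sets at 4.0. The trend called 2 of the 20 measured, both lower with miR-29a-3p, where 1.03% of all genes were called. They were the near-identical genes SLC2A3 at -1.655 and SLC2A14 at -1.675, whose share of common probe signal was not tested.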

How the data were processed

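The authors' deposited values are log2 signals made with RMA, per the submitters' processing notes, which also name hg38. No RMA version was given in the sources used here. RMA equalises array distributions, so a change in total messenger RNA cannot be seen, and dim genes have compressed differences. Probe sets were named through the platform annotation (17709 of 21448 with 1 gene, 0 with several, 3739 unnamed here), and all 17709 gene IDs matched RefSeq on GRCh38. The brightest probe set per gene was kept, giving 17687 genes, with no filter.

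limma 3.58.1 in R 4.3.3 was fitted to all 6 samples with 3 residual degrees of freedom and Benjamini-Hochberg adjustment over all genes at 0.05. It was tested on simulated data with changes larger than any member's difference. That test does not show how well changes of the members' size are called. The 2 fits reported are the constant prior, which is the main one, and the intensity trend. Alternatives also covered a robust prior, leaving out genes with a mean under 5, scaling, only the groups compared, a replicate block, all probe sets and leaving out each sample. Combinations with the intensity trend were added after seeing the data.

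Members and lists were chosen with earlier results of these data known. Sample values are given for members called in either fit, the 3 highest and 3 lowest differences of each mimic, and HK2, LDHA, HIF1A and VEGFA (SLC16A1 and CA9 were also on this list and are not analysed here). From each pathway list the 2 genes with the smallest p per mimic against control are named, and other list genes were named after their values were seen.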

Additional observations from a re-analysis of the deposited data

How the results depend on the processing

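Calls depended most on the prior variance and on single samples. With the intensity trend limma called 121, 182 and 344 genes and 1, 1 and 2 members, for miR-223-3p against control, miR-29a-3p against control and between the mimics, where the constant prior called 0, 2 and 39 genes and 0 members each. Without dim genes it called 3, 17 and 107 genes, with 1 member between the mimics. Fitting only the mimics called 1 gene between them. The replicate block, with letters that the labels do not tie to a shared culture or day, left 0 genes called for miR-29a-3p against control and between the mimics. The differences between samples A and B correlated across genes at 0.00393, 0.0682 and 0.134 between groups. With the trend and the replicate block 2 members were called for miR-223-3p (HIF1A beside LDHA, adjusted p = 0.042 in limma) and 276 genes for miR-29a-3p, and with the trend and no dim genes 274. With the trend and a second quantile normalization or median centring 0 members were called for miR-223-3p. The members' median for miR-223-3p was -0.0629 after a second quantile normalization.

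Leaving out each sample in turn gave 0 to 2 genes for miR-29a-3p and 0 to 1 between the mimics with the constant prior. With the trend it gave 42 to 99, 45 to 189 and 141 to 336 genes, and 0, 0 to 1 and 1 to 2 members, in the order above. The members' median ran from -0.145 to -0.05 for miR-223-3p and from -0.035 to 0.015 for miR-29a-3p. Among the members followed one by one in the refits, which were not all 33, signs turned for the differences that follow. None of them was called in either fit. For miR-223-3p these ran from -0.295 to 0.135 for P4HA1, -0.245 to 0.545 for PDK3, -0.15 to 0.12 for HK2, -0.17 to 0.27 for VEGFA, -0.075 to 0.255 for PFKFB3 and -0.1 to 0.04 for EGLN1. For miR-29a-3p they ran from -0.16 to 0.53 for ANKRD37, -0.055 to 0.215 for HK2, -0.09 to 0.56 for PDK3, -0.26 to 0.33 for VEGFA, -0.275 to 0.465 for PFKFB3, -0.055 to 0.575 for NDRG1, -0.25 to 0.02 for HIF1A and -0.035 to 0.015 for LDHA, which was 0.03 after a second quantile normalization and 0.005 after median centring. Between the mimics they ran from -0.43 to 0.1 for ANKRD37, -0.31 to 0.28 for VEGFA, -0.13 to 0.64 for HILPDA, -0.365 to 0.375 for PFKFB3 and -0.31 to 0.48 for PDK3. The causes were not tested.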
